A study of Mus musculus with 2 samples.

Results

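The Toll-like receptor family was followed through leukocytes of early mouse melanomas grown with and without host NK cells. The 9 members Tlr1, Tlr2, Tlr3, Tlr4, Tlr6, Tlr7, Tlr8, Tlr9 and Tlr13 were taken by gene symbol from the 31053 genes of the feature list, which holds 12 Tlr genes in all. They were read in 8504 of 9798 filtered cells, namely the myeloid, dendritic and B cells called by marker genes. Of these, 4335 came from control hosts and 4169 from NK cell-depleted hosts.

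The tumors came from a Braf V600E-driven melanoma line in which the genes of both cyclooxygenases, the enzymes that start prostaglandin synthesis, had been disrupted by CRISPR (Ptgs-/-). Both groups received these same cells under the skin, in C57BL/6 hosts of 8 weeks of age, and tumors were taken on day 4. Control hosts had no depletion. NK cell-depleted hosts received 200 µg of anti-NK1.1 antibody and 30 µg of anti-asialo GM1 antibody on days 0 and 2. These antibodies act through surface molecules that are not unique to NK cells. The sample titles and the series design give Ptgs-deficient tumors for both groups, whereas the genotype label of both samples reads wildtype tumor cells. Several tumors of a group were pooled, live CD45+ cells were sorted, parental melanoma cells were spiked in, and the pool was run as 1 droplet library per group. With 1 library per group there is no replicate and no test of the difference between groups. Every ratio below describes a pair of libraries, and every interval covers counting error only.

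Toll-like receptors are membrane proteins with a ligand-binding ectodomain of leucine-rich repeats and a cytoplasmic TIR domain that recruits adaptors. Tlr2, paired with Tlr1 or Tlr6, binds bacterial lipoproteins and lipopeptides at the cell surface, and Tlr4 with its partner Ly96 binds lipopolysaccharide. Tlr3, Tlr7, Tlr8, Tlr9 and Tlr13 sit in endosomes, where Tlr3 binds double-stranded RNA, Tlr7 single-stranded RNA, Tlr9 unmethylated CpG DNA and Tlr13 a bacterial ribosomal RNA sequence, and mouse Tlr8 has a debated ligand range. All but Tlr3 signal through Myd88, Tlr3 signals through Ticam1 (TRIF), and Tlr4 uses both, which leads to NF-kappaB and IRF activation. In tumors, monocytes, macrophages, neutrophils and dendritic cells (DCs) carry most of these receptors and can meet nucleic acids and other products of dying cells.

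Each member was matched by its Ensembl identifier to the mm10 annotation. Tlr2 lies at chr3:83836272-83841767 on the minus strand and Tlr4 at chr4:66827584-66930284 on the plus strand. The neighbouring paralogs Tlr1 (chr5:64924679-64933563) and Tlr6 (chr5:64952031-64960097) lie on the minus strand. Tlr3 lies at chr8:45395665-45411080 on the minus strand and overlaps Gm45542 on the other strand, and Tlr9 at chr9:106222598-106226883 on the plus strand. Tlr13 (chrX:106143204-106160493, plus), Tlr8 (chrX:167242696-167264329, minus) and Tlr7 (chrX:167304929-167330558, minus) are X-linked. Reads of the libraries start near the transcript's 3′ end, so the last 500 bases of each member's transcripts were searched for 31-base words that another gene also holds. Such words made up 11.1% of those of Tlr1, 1.49% of those of Tlr6, 1.82% of those of Tlr4 and 0 of those of the other 6 members, so counts of Tlr1 are the least certain on this measure.

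The promoters of Tlr2 and Tlr3 are shown because these members had the lower and the higher level, respectively, in monocytes and macrophages of control hosts and because they marked different cells. The sequences are from RefSeq on GRCm38.p6 (the mm10 assembly), run 5′ to 3′ on the gene's strand from 250 bases before to 50 bases after the start, and are found at chr3:83841559-83841858 (Tlr2, minus strand) and chr8:45410331-45410630 (Tlr3, minus strand). Capitals mark an NF-kappaB-type site, GGGNNNTTCC, searched on both strands.
Tlr2: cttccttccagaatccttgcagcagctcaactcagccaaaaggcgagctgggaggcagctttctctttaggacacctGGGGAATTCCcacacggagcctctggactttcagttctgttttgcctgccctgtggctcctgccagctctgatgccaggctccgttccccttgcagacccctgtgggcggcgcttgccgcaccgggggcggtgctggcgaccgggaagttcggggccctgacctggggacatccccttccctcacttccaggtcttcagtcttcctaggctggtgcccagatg
Tlr3: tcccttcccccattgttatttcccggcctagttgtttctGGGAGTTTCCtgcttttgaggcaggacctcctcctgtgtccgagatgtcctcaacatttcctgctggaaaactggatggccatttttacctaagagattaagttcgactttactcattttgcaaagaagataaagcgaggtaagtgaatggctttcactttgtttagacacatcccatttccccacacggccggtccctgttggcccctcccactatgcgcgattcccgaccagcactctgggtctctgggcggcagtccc
The match starts at base 78 of the Tlr2 window, 173 bases before the start, and at base 40 of the Tlr3 window, 211 bases before the start. Of 32851 promoters of the same length, 5.56% held this motif. An interferon response element core, GAAANNGAA, found in 8.56% of promoters, and a PU.1-type site, GAGGAAG, found in 13.6%, had no match in either window. RefSeq gave a window for 7 of the 9 members. Tlr6, which has a window for each of 2 starts, held the NF-kappaB-type site in one and the GAAANNGAA core in the other. Tlr8 held the GAAANNGAA core, and Tlr1, Tlr9 and Tlr13 held the PU.1-type site. A match describes letters in a window and is no evidence of binding.

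Filtering kept cells with 500 to 15000 unique molecular identifiers (UMIs, each standing for 1 captured transcript), 200 to 4000 genes and at most 10% mitochondrial UMIs. This left 5292 control and 4506 NK-depleted cells, with a median of 4170 and 4893 UMIs. The libraries shared 5 cell barcodes among the kept cells. Clusters were named only from preset markers and are therefore called "-like". NK-like cells, the target of the depletion, numbered 579 in the control and 21 in the NK-depleted library. Monocyte/macrophage-like cells numbered 3552 and 3201, neutrophil-like cells 361 and 457, conventional DC-like cells 299 and 357, migratory DC-like cells 61 and 48, and B-like cells 48 and 35 (control and NK-depleted). Eosinophil-like cells, 14 and 71, were also among the cells read. They held 3 and 1 UMIs of Tlr2, 2 and 0 of Tlr4 and 0 and 1 of Tlr13, too few to compare. The conventional DC-like cells divided into 227 and 287 cDC2-like, 32 and 52 cDC1-like, and 40 and 18 plasmacytoid DC-like cells. The last go against the name of the class and are part of its values unless stated. In these pooled cells fewer transcripts per cell and a smaller part of the class carrying them cannot be told apart from a CPM alone. Levels are given as a gene's UMIs per 1000000 UMIs of the class (CPM) with an exact Poisson 95% interval. They are compared for 1 gene across classes or libraries and not between genes, because capture near the 3′ end differs between genes.

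Transcripts of the family lay mostly in monocyte/macrophage-like cells, as did transcripts of all genes. This class held 20043022 of 24810009 UMIs in the control and 19009887 of 23245982 in the NK-depleted library. Over both libraries these cells, a class that holds most of the leukocytes, held 98.5% of Tlr8 UMIs (203 of 206), 96.6% of Tlr7, 93.4% of Tlr9, 92.6% of Tlr13, 92.4% of Tlr4, 91.5% of Tlr1 and 88.8% of Tlr2. Tlr3 and Tlr6 departed most from this pattern. Of 503 Tlr3 UMIs, 62.8% lay in monocyte/macrophage-like and 34.4% in cDC1-like cells, and of 517 Tlr6 UMIs, 80.7% lay in monocyte/macrophage-like and 12.0% in neutrophil-like cells. Tlr6 was not concentrated in monocyte/macrophage-like cells, at 10.1 (control) and 11.3 CPM (NK-depleted) against 9.75 and 11.8 CPM in all cells. For Tlr2 these levels were 162 and 228 CPM against 148 and 210 CPM. At least 1 UMI of any member was seen in 74.4% of control and 78.4% of NK-depleted monocyte/macrophage-like cells. After every cell was thinned to 2000 UMIs, which left out 315 and 241 shallower cells, these shares were 48.4% and 54.3%.

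**Figure D1:**
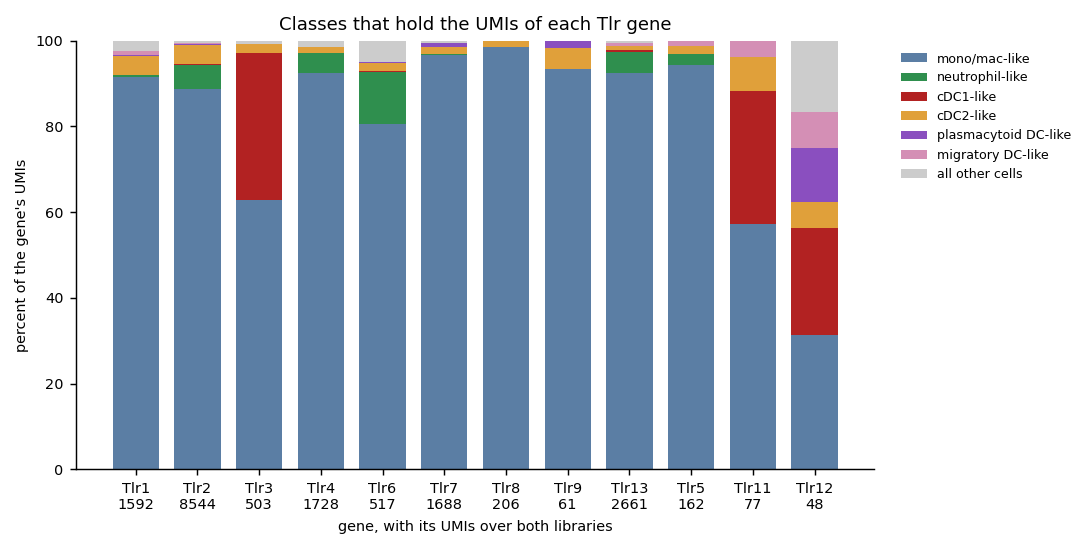
Percent of each Tlr gene's UMIs (y axis) held by each class of cells, for 12 Tlr genes with their total UMIs over both libraries under the bars. Monocyte/macrophage-like cells held the most UMIs of each of the 9 members, and cDC1-like cells held 34.4% of those of Tlr3.

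The 3 Tlr genes outside the 9 members were sparse. Tlr5, the flagellin receptor, had 162 UMIs, of which 94.4% lay in monocyte/macrophage-like cells. Tlr11 and Tlr12, which bind profilin of apicomplexan parasites, had 77 and 48 UMIs. In cDC1-like cells Tlr11 reached 42.9 CPM (11 UMIs, control) and 32.8 CPM (13 UMIs, NK-depleted), against 1.25 and 0.999 CPM in monocyte/macrophage-like cells. Tlr12 had 2 and 10 UMIs in cDC1-like cells.

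Among the surface receptors, Tlr2 was lower in control than in NK-depleted monocyte/macrophage-like cells. The control library held 3254 Tlr2 UMIs (162 CPM; 157 to 168) and the NK-depleted library 4333 (228 CPM; 221 to 235), a ratio of control over NK-depleted of 0.712 (exact binomial 95% interval 0.680 to 0.746). A Tlr2 UMI was found in 43.1% of control and 52.9% of NK-depleted cells of the class, and in 24.5% and 31.4% after thinning. The same difference was thus present at equal depth per cell. In lymphocyte and tumor cell classes, where free RNA can give UMIs, Tlr2 was found in 1.30% of 461 T-like cells (median 2242 UMIs), in 0.833% of 600 NK-like cells (median 2096 UMIs) and in 0 of 122 melanoma-like cells (median 1904 UMIs), with an upper limit on the share of 2.46%. Shares in monocyte/macrophage-like cells lay far above these.

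Tlr1, one partner of Tlr2, was also lower in the control library. Its 621 and 836 UMIs came to 30.98 and 43.98 CPM, a ratio of 0.705 (0.634 to 0.783). Tlr6, the other partner, had 202 and 215 UMIs, 10.1 and 11.3 CPM, with a ratio of 0.891 and an interval that includes 1 (0.732 to 1.08). Tlr4, the lipopolysaccharide receptor, had 770 and 826 UMIs, 38.4 and 43.5 CPM, and its ratio of 0.884 (0.8004 to 0.977) was close to 1. All 4 surface members had a ratio below 1, and none was past 1.5-fold.

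Of the endosomal receptors, Tlr3 was higher in the control library. It had 191 UMIs (9.53 CPM; 8.23 to 11.0) in control and 125 UMIs (6.58 CPM; 5.47 to 7.83) in NK-depleted monocyte/macrophage-like cells, a ratio of 1.45 (1.15 to 1.83). A Tlr3 UMI was seen in 4.45% and 3.499% of these cells, or 1.54% and 1.18% when thinned, and the thinned level is near that of single UMIs. Tlr13 had 1321 and 1142 UMIs, 65.9 and 60.1 CPM, with a ratio of 1.10 (1.01 to 1.19). The other 3 endosomal members had intervals that include 1. Tlr7 had 802 and 829 UMIs (40.0 and 43.6 CPM), a ratio of 0.918 (0.832 to 1.01). Tlr8 had 118 and 85 UMIs, a ratio of 1.32 (0.988 to 1.76), and Tlr9 had 32 and 25 UMIs, a ratio of 1.21 (0.697 to 2.14). Of the 5 endosomal members, 4 had a ratio above 1.

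A gene was counted as past the fold where it had at least 20 UMIs over both libraries. Its ratio, with 0.5 UMI added to the sum of each library, also had to be at least 1.5 either way. In monocyte/macrophage-like cells 0 of the 9 members were past it, against 12.4% of all 11899 genes measured there. The median log2 ratio of the members was -0.12 and that of all measured genes -0.01. Intervals lay wholly above 1 for 2 of the 9 members and wholly below 1 for 3. Of all measured genes in this class 45.5% had an interval clear of 1, so this alone sets no member apart. Tlr3 (log2 ratio 0.53), Tlr1 (-0.50) and Tlr2 (-0.49) lay nearest to the 1.5-fold limit, and Tlr3 passed it in 8 of 15 other settings. These settings overlap in what they change, and the 8 include cluster weights chosen after seeing the data. Another, a melanoma-like background subtracted, rests on 0 control and 2 NK-depleted Tlr3 UMIs in melanoma-like cells. The log2 ratio of Tlr9 came to 1.16, from 0.27, with 1258 possible doublets left out of 9798 cells.

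**Figure D2:**
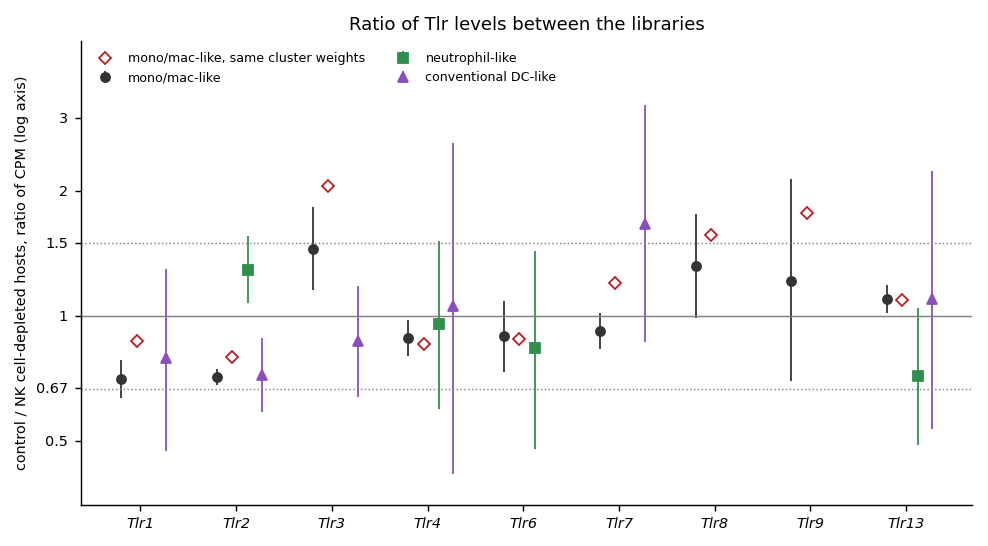
Ratio of CPM, control over NK cell-depleted hosts (y axis, log scale), for each member in 3 classes, with exact binomial 95% intervals for counting error as bars; dotted lines mark 1.5-fold either way, and open diamonds give monocyte/macrophage-like cells with cluster weights made equal between the libraries, without an interval. Tlr1 and Tlr2 lay below 1 and Tlr3 above 1 in monocyte/macrophage-like cells, and Tlr2 lay above 1 in neutrophil-like cells.

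The make-up of this class differed between the libraries. Clusters led by Gpnmb and Mmp13 (20.5% of control and 11.7% of NK-depleted cells of the class), Pf4 and Ms4a7 (19.9% and 11.2%), Dcstamp (12.5% and 6.40%) and Havcr2 and Spint1 (9.60% and 5.25%) took larger shares in the control library. Clusters led by Ccl8 and Lyve1 (11.0% and 21.7%), Chil3, Vcan and Ly6c2 (9.38% and 19.4%, Ly6c2 monocyte-like) and Ace (3.58% and 8.53%, Ace monocyte-like) took larger shares in the NK-depleted library. Most members had different levels in these clusters. Tlr2 was highest in the Ace cluster in both libraries (385 CPM in control and 477 CPM in NK-depleted cells), followed in control by the Chil3 cluster (246 CPM) and in NK-depleted cells by the Havcr2 cluster (389 CPM). Tlr1 (66.6 and 76.9 CPM) was highest in the Ccl8 cluster in both. Tlr4 was highest in the Ccl8 cluster in control (62.4 CPM) and in the Gpnmb cluster in NK-depleted cells (57.9 CPM), so its order of clusters was not shared. Tlr7 reached 127 and 99.5 CPM in the Ace cluster, the highest in both, but 8.85 and 13.5 CPM in the Dcstamp cluster. Tlr13 stood at 109 and 91.3 CPM in the Ace cluster, near the 98.2 and 88.3 CPM of the Pf4 cluster, and at 4.13 and 9.22 CPM in a cluster led by Retnla and Il6.

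The ratios were computed again with each cluster given 1 weight for both libraries, namely the mean of its shares of the cells. This changes the make-up and also lets a shallow cluster count by its cells in place of its UMIs. One such cluster, led by Ifi205 and Ddx60, held 13 control and 4 NK-depleted UMIs of Tlr3. The 4 surface members had ratios of 0.867 for Tlr1, 0.796 for Tlr2, 0.852 for Tlr4 and 0.877 for Tlr6. The 5 endosomal members had ratios of 2.05 for Tlr3 (10.5 against 5.14 CPM), 1.56 for Tlr8, 1.76 for Tlr9, 1.20 for Tlr7 and 1.09 for Tlr13. Thus 3 members (Tlr3, Tlr8 and Tlr9) were past 1.5-fold, against 10.7% of all genes, on 316 UMIs of Tlr3, 203 of Tlr8 and 57 of Tlr9 over both libraries. The sign for Tlr7 differs from that of the summed class (0.918). These ratios have no interval and no added UMI, and no difference between surface and endosomal members was tested. In alternatives chosen after seeing the data, the log2 ratio of Tlr3, 0.53 in the summed class, was 0.74 when clusters counted by each library's own shares of cells and 0.86 when they counted in both libraries by the mean of their shares of UMIs. The counting of cells alone, with the make-up left in, thus took Tlr3 past 1.5-fold, and so did equal make-up alone.

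Within single clusters, 58 pairs of a member and a cluster had at least 20 UMIs, and 12 of them were past 1.5-fold, 6 in each direction, beside 17.2% of the 77912 pairs of any gene and these 10 clusters. Tlr2 ranged over 9 clusters from 0.566 (0.484 to 0.664) in the Havcr2 cluster to 1.0002 in the Gpnmb cluster, and was below 1 in the others. Tlr3 could be measured in 4 clusters and was above 1 in each, from 1.22 in the Chil3 cluster to 2.73 in the Dcstamp cluster. Its best measured value was in the Ccl8 cluster, where 62 control and 67 NK-depleted UMIs from 392 and 694 cells gave 1.79 (1.25 to 2.57). In the Gpnmb cluster, below the limit of 20, all 18 Tlr3 UMIs came from the control library, and in the Retnla and Il6 cluster the order was the other way, with 4 control and 11 NK-depleted UMIs.

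Other members varied more between clusters. Tlr4 was lower in control cells of the Chil3 cluster, with 29 and 130 UMIs and a ratio of 0.447 (0.288 to 0.672), and was above 1 in 5 of its 9 clusters. Tlr13 was higher in control cells of the Gpnmb cluster, with 236 and 78 UMIs and a ratio of 1.64 (1.26 to 2.15), and above 1 in 4 of 8 clusters. Tlr7 was above 1 in 7 of 9 clusters (0.657 to 1.42), Tlr8 in 3 of 4 (0.858 to 1.80), Tlr6 in 2 of 6 (0.705 to 1.58) and Tlr1 in 2 of 9 (0.252 to 1.33). The lowest Tlr1 value came from 3 and 20 UMIs in the Retnla and Il6 cluster.

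**Figure D3:**
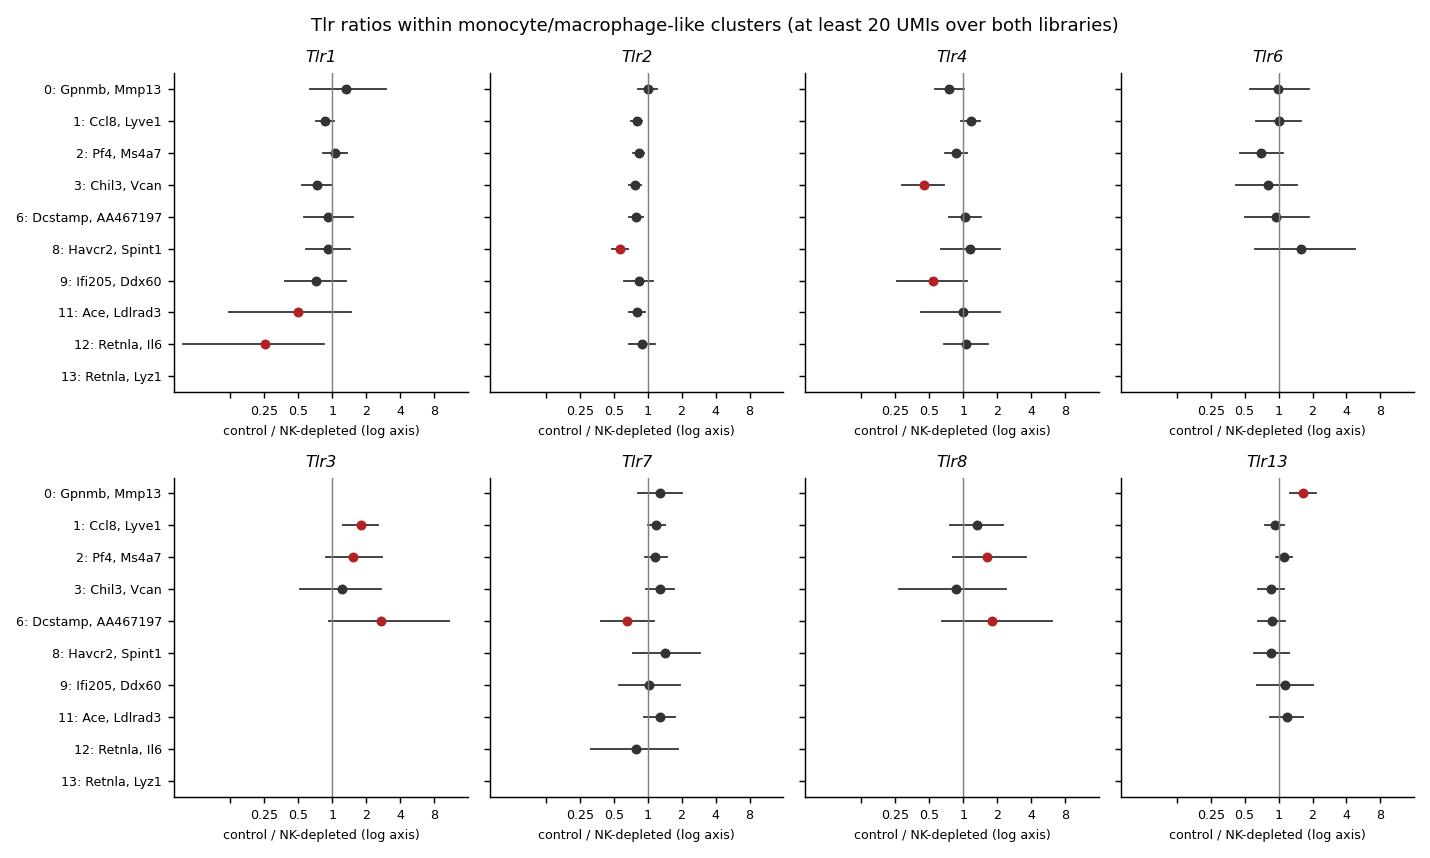
Ratio of CPM, control over NK cell-depleted hosts (x axis, log scale), for 8 members in each monocyte/macrophage-like cluster (y axis, by leading genes) that held 20 or more UMIs of the gene; bars are exact binomial 95% intervals for counting error and red points are past 1.5-fold. Tlr3 lay above 1 in all 4 of its clusters and Tlr2 did not exceed 1.0002 in its 9; Tlr9 had no cluster with enough UMIs.

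Other measures also differed between the libraries in these cells. The summed level of 10 immediate-early and heat-shock genes, a list chosen after values were seen and often read as a sign of handling, was 9972 CPM in control and 11980 CPM in NK-depleted monocyte/macrophage-like cells, a ratio of 0.832, and 8 of the 10 were lower in control. Median mitochondrial shares were 2.76% and 3.65%. The 16 neutrophil markers summed to 254 and 262 CPM there with Ly6g at 0 in both, against 58287 and 59756 CPM in neutrophil-like cells, and the 8 cDC1 markers summed to 671 and 745 CPM, against 5295 and 5786 CPM in cDC1-like cells. The 14 NK markers summed to 83.2 and 19.99 CPM, all 14 higher in control. The part of these in the Tlr2 and Tlr3 ratios was not tested. Xist, read because Tlr7, Tlr8 and Tlr13 are X-linked, had 1511 CPM in all control and 1236 CPM in all NK-depleted cells, and 4 Y-linked genes together had at most 6 UMIs in a library.

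In neutrophil-like cells Tlr2 had the opposite order between the libraries. It had 223 UMIs in 361 control cells (522 CPM; 455 to 595) and 245 UMIs in 457 NK-depleted cells (404 CPM; 355 to 458), a ratio of 1.29 (1.07 to 1.55). Per cell this was 0.618 and 0.536 UMIs, and 33.0% and 31.7% of cells held a Tlr2 UMI, so shares of cells differed little. These cells are shallow, with a median of 1158 and 1298 UMIs, and almost none could be thinned to 2000. Per UMI of the class, Tlr2 was higher in neutrophil-like (453 CPM; 413 to 496) than in monocyte/macrophage-like cells (194 CPM; 190 to 199) over both libraries. Per cell it was lower, since monocyte/macrophage-like cells held 0.916 and 1.35 Tlr2 UMIs each.

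Tlr4, Tlr6 and Tlr13 were the other members measured in neutrophil-like cells. Tlr4 had 33 and 49 UMIs (77.2 and 80.9 CPM), a ratio of 0.955, and Tlr6 had 23 and 39 UMIs (53.8 and 64.4 CPM), a ratio of 0.836 (0.477 to 1.43). Tlr13 had 44 and 87 UMIs (103 and 144 CPM), a ratio of 0.717 (0.487 to 1.04). None of the 4 measured members was past 1.5-fold, against 21.2% of 4587 genes. The interval lay clear of 1 for Tlr2 alone, beside 14.6% of these genes. Over both libraries Tlr6 stood at 60.002 CPM (46.0 to 76.9) in neutrophil-like and 10.7 CPM (9.68 to 11.8) in monocyte/macrophage-like cells, and Tlr13 at 127 (106 to 150) and 63.1 CPM (60.6 to 65.6). Tlr3, Tlr8 and Tlr9 had 0 UMIs in 818 neutrophil-like cells, which allows up to 2.90 CPM for each. Tlr7 had 5 UMIs and Tlr1 8.

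A small unnamed cluster of 111 cells, led by Gm5483, Hcar2 and Cxcl3, also held Tlr6. It had 9 control and 12 NK-depleted Tlr6 UMIs, 172 CPM (106 to 262) over both, and 21 and 14 UMIs of Tlr2. Only 1 of its 50 leading genes was a marker of a class, so it was given no name.

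cDC1-like cells stood out for Tlr3. The gene had 64 UMIs in 32 control cells (250 CPM; 192 to 319) and 109 UMIs in 52 NK-depleted cells (275 CPM; 226 to 331), and it was found in 26 of 32 and 43 of 52 cells. The ratio between the libraries was 0.909 (0.657 to 1.25), so no difference was detectable at this depth. Over both libraries Tlr3 reached 265 CPM (227 to 307) in cDC1-like cells, against 8.09 CPM (7.22 to 9.03) in monocyte/macrophage-like and 3.28 CPM (1.57 to 6.04) in cDC2-like cells. Tlr3 was in 82.1% of cDC1-like and 1.56% of cDC2-like cells, and in 35.7% and 0.394% after thinning. In melanoma-like and NK-like cells it was in 1.64% and 0.333%. The other members had few UMIs in cDC1-like cells, where Tlr2 had 3 and 13 UMIs (11.7 and 32.8 CPM) and Tlr13 1 and 6. UMIs of 2 or more members were seen in 12.5% of control and 28.8% of NK-depleted cDC1-like cells. Tlr7, Tlr8 and Tlr9 had 0 in 84 cells, which allows up to 4.59 CPM for each.

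cDC2-like cells carried Tlr2 and little of the rest. Tlr2 had 132 UMIs (108 CPM; 90.4 to 128) in 227 control and 254 UMIs (139 CPM; 123 to 157) in 287 NK-depleted cells, a ratio of 0.776 (0.624 to 0.962). It was found in 32.2% and 43.2% of cells, or 15.7% and 20.4% when thinned. With a stricter cell filter (at least 1000 UMIs and 500 genes, at most 5% mitochondrial UMIs) the log2 ratio moved from -0.36 to 0.03. The Tlr2 difference in cDC2-like cells therefore depended on which cells were kept. Tlr1 had 23 and 45 UMIs, a ratio of 0.763 (0.441 to 1.29), and Tlr7, Tlr13 and Tlr4 had 29, 28 and 21 UMIs over both libraries with intervals that include 1.

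Conventional DC-like cells taken whole had 6 measured members, of which 1 was past 1.5-fold, against 15.7% of 8973 genes. That member was Tlr7, with 23 UMIs (13.6 CPM) in control and 19 UMIs (8.19 CPM) in NK-depleted cells, a ratio of 1.66 (0.865 to 3.23) whose interval includes 1. Plasmacytoid DC-like cells held 9 and 4 of these UMIs, and without them (an alternative chosen after seeing the data) the log2 ratio of Tlr7 went from 0.73 to 0.49 and the call was lost. It was also lost under the stricter cell filter (0.48) and at a finer clustering (0.55). The ratio turned to -0.18 when classes were called cell by cell instead of by cluster. Tlr2 had 147 and 280 UMIs, a ratio of 0.721 (0.586 to 0.883), and its log2 ratio of -0.47 came to -0.03 under the stricter cell filter and to -0.13 with classes called cell by cell. The 10 immediate-early and heat-shock genes summed to a ratio of 0.809 in this class, and their part in the Tlr2 ratio was not tested. Tlr3 had 71 and 112 UMIs there, most of them in the cDC1-like cells, and a ratio of 0.870 (0.637 to 1.18). The log2 ratio of Tlr3 was -0.20, and -0.87 at a finer clustering.

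Plasmacytoid DC-like cells, known for Tlr7 and Tlr9, were too few to compare. Tlr7 had 9 UMIs in 40 control cells (42.6 CPM; 19.5 to 80.8) and 4 UMIs in 18 NK-depleted cells (41.1 CPM; 11.2 to 105). Tlr9 had 0 and 1 UMIs, and Tlr2 had 12 and 13 UMIs. Over both libraries the level of Tlr7 in these cells (42.1 CPM; 22.4 to 72.0) overlapped that of monocyte/macrophage-like cells (41.8 CPM; 39.8 to 43.8).

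Migratory DC-like cells, marked by Ccr7 and Fscn1, held few Tlr transcripts. Tlr1 had 11 and 3 UMIs, Tlr2 8 and 2, Tlr13 6 and 8, and Tlr7 0 and 2. Tlr3, Tlr4, Tlr6, Tlr8 and Tlr9 had 0 UMIs in 109 cells, which allows a level of up to 4.74 CPM for each. Over both libraries Tlr2 was at 15.8 CPM (7.58 to 29.1) in migratory DC-like and 127 CPM (114 to 140) in cDC2-like cells.

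B-like cells held Tlr1 at 4 UMIs in 48 control and 3 UMIs in 35 NK-depleted cells (56.3 and 51.5 CPM). Tlr2 and Tlr7 had 1 UMI each. Tlr9, a receptor that B cells are known to carry, had 0 UMIs in 83 B-like cells, so the share with a UMI could reach 3.61%. At a median of 1552 UMIs per cell this depth cannot show a low level. In T-like cells Tlr1 had 16 and 8 UMIs (22.7 CPM over both; 14.5 to 33.8).

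**Figure D4:**
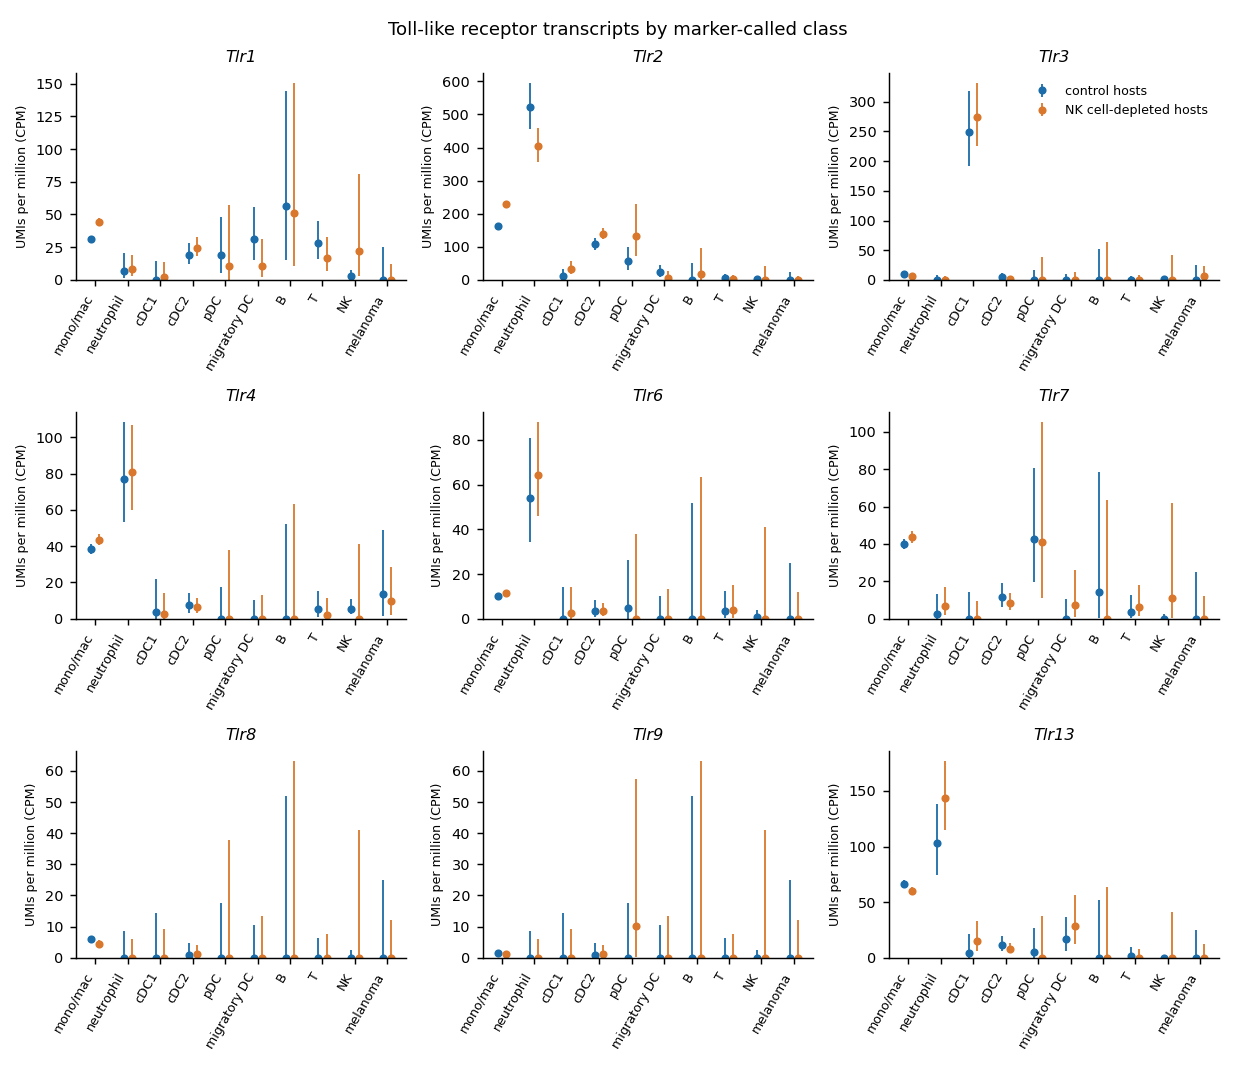
Level of each member (y axis, CPM) in each class, in the control (blue) and the NK cell-depleted library (orange), with exact Poisson 95% intervals for counting error as bars. Tlr3 stood at 250 and 275 CPM in cDC1-like cells and below 20 CPM in the other classes shown, and Tlr2, Tlr4, Tlr6 and Tlr13 had their highest levels among these classes in neutrophil-like cells.

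The genes that carry the signal were read from a list of 60 pathway genes, of which 59 were measured in monocyte/macrophage-like cells. None was at least 1.5-fold higher in control and 4 were at least 1.5-fold lower. Of all 11899 genes measured in this class 1036 were higher and 443 lower past this fold, 12.4% either way. The median log2 ratio of the 59 pathway genes was -0.16. The 4 were Myd88, Ticam2, Tnfaip3 and Dusp1.

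Of these, 2 are adaptors, which link the receptors to kinases. Myd88, the adaptor of all members but Tlr3, had 1593 and 2273 UMIs, 79.5 and 120 CPM, a ratio of 0.665 (0.623 to 0.709). Ticam2 (TRAM), which joins Tlr4 to Ticam1, had 374 and 572 UMIs, a ratio of 0.620 (0.543 to 0.708). Ticam2 was below 1 in 9 of 9 clusters (0.477 to 0.918) and Myd88 in 8 of 10 (0.718 to 1.11). With these same cluster weights Ticam2 had a ratio of 0.665 and was the only one of the 4 still past 1.5-fold, and Myd88 had 0.845.

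The inhibitors Tnfaip3 (A20), a ubiquitin-editing enzyme that restrains NF-kappaB, and Dusp1, a phosphatase of MAP kinases, were the other 2. Tnfaip3 had 3884 and 6105 UMIs, a ratio of 0.603 (0.579 to 0.628), and was below 1 in 9 of 9 clusters. Dusp1 had 51600 and 76237 UMIs, a ratio of 0.642 (0.635 to 0.649), and was below 1 in 9 of 10 clusters (0.592 to 2.27). With the same cluster weights their ratios were 0.725 and 0.717. Both genes are also rapidly induced by stress, and the immediate-early and heat-shock list given above had a ratio of 0.832 in these cells.

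In the summed class the median of every role lay below 0, from -0.06 to -0.37. The median log2 ratio was -0.11 for 11 endosomal trafficking and protease genes, -0.06 for 8 co-receptors, -0.23 for 5 adaptors, -0.16 for 16 kinases and ubiquitin ligases, -0.37 for 6 transcription factors and -0.19 for 13 inhibitors. With each cluster given 1 weight for both libraries, the median of the 59 genes was -0.12. Among the co-receptors, Cd14 (0.821), Cd36 (0.759), Itgam (0.874) and Lbp (0.992) then had ratios below 1. Ly96 (1.04), Cd180 (1.06), Ly86 (1.05) and Hmgb1 (1.15) had ratios above 1, so the lower side was not shared by all roles. The ratios that follow are of the summed class unless stated. The gene with the most UMIs in each role without a member past the fold was Ctsb (0.876), a lysosomal protease, Itgam (0.986), an integrin chain, Tab2 (0.865), a kinase partner, and Nfkb1 (0.760), a subunit of NF-kappaB. Irf7, which drives interferon genes downstream of Tlr7 and Tlr9, is named after its values were seen. It had a ratio of 0.923 (0.878 to 0.970) in the summed class, although single clusters lay between 0.947 and 2.40 and 8 of 10 were above 1. With each cluster given 1 weight for both libraries, the Irf7 ratio was 1.44, without an interval, so its direction depended on the cluster weights.

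**Figure D5:**
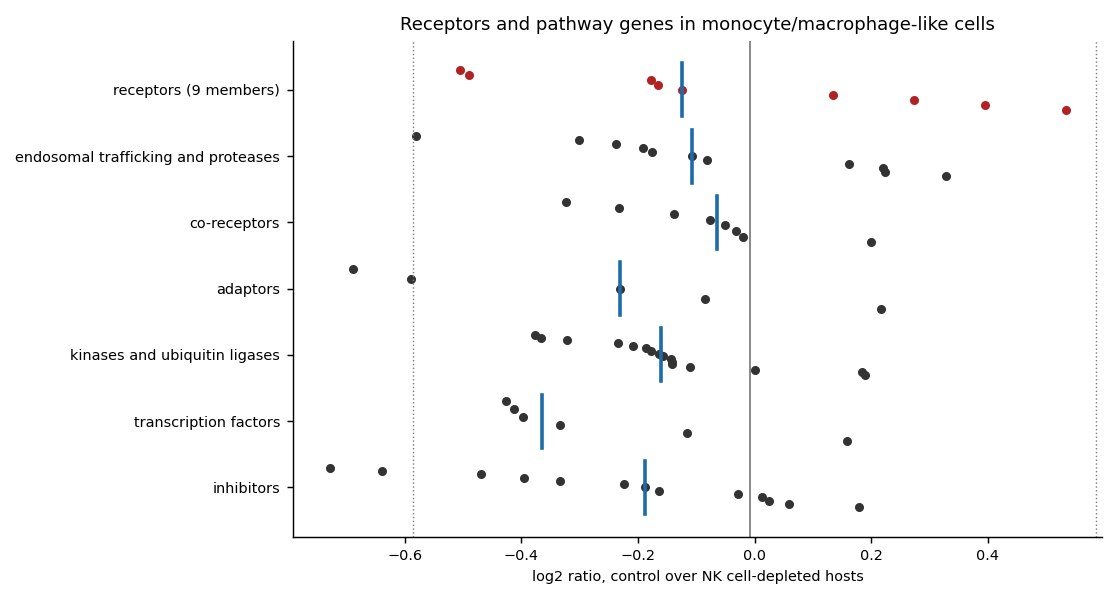
Log2 ratio of CPM, control over NK cell-depleted hosts (x axis), in monocyte/macrophage-like cells for the 9 members (red) and 59 pathway genes (black) by role (y axis); blue bars are medians, the grey line is the median of all genes (-0.01) and dotted lines mark 1.5-fold. The 4 genes below the lower limit were the adaptors Ticam2 and Myd88 and the inhibitors Tnfaip3 and Dusp1.

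In neutrophil-like cells 4 of 44 measured pathway genes were past 1.5-fold higher in control and 7 lower. Of all 4587 genes measured in this class 499 were higher and 472 lower, 21.2% either way, so the share past it either way is near the background. Irf5, a transcription factor downstream of Myd88, had 36 and 23 UMIs, a ratio of 2.22 (1.28 to 3.92). In conventional DC-like cells 1 of 55 was higher and 9 were lower, beside 748 higher and 662 lower of all 8973 genes. The share past the fold in either direction was near the 15.7% of all genes, but the pathway genes lay mostly on the lower side. The next 3 genes come from classes with few cells, where 26.2% (cDC1-like), 29.1% (migratory DC-like) and 29.9% (B-like) of all genes were past 1.5-fold. In cDC1-like cells Tab2 had 30 and 94 UMIs, a ratio of 0.494 (0.316 to 0.752), and in migratory DC-like cells Irf7 had 17 and 37 UMIs, a ratio of 0.359 (0.190 to 0.655). In B-like cells Ctss, a protease that cleaves endosomal receptors, had 36 and 14 UMIs, a ratio of 2.11 (1.11 to 4.24).

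Genes with a pattern most like each member were found by Pearson's r of log2(CPM + 10) over the 19 clusters, both libraries summed, among 8789 genes. These values describe clusters that come from the same 2 libraries, and the clusters differ in depth. The conventional DC-like cells are 1 cluster here, with 656 cells of which 84 are cDC1-like. The high Tlr3 level of cDC1-like cells is thus averaged with that of the other cells of this cluster, which limits what r can show for Tlr3. Tlr2 was most like Igsf6 (r = 0.955), Cd300a (0.952) and Atf3 (0.950). Tlr4 was most like C5ar1 (0.941), Bst1 (0.920) and Slc11a1 (0.918), and Tlr13 like Tcn2 (0.931), Ninj1 (0.919) and Gm5150 (0.914). Tlr6 was most like Hcar2 (0.947), Osgin1 (0.939) and Sh2b2 (0.928), and Tlr7 like Gm5431 (0.903), Smpdl3b (0.888) and Fcgr1 (0.877). The nearest genes to Tlr1, Tor3a (0.807), Nipa2 (0.805) and Gm20707 (0.798), and to Tlr3, B4galt4 (0.872), Gprc5c (0.850) and Cd209d (0.807), were less alike. Between members, Tlr2 and Tlr13 (0.889) and Tlr7 and Tlr8 (0.882) were close, while Tlr3 was near 0 with Tlr13 (0.046), Tlr4 (0.089) and Tlr6 (-0.11).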

How the data were processed

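Gene-by-cell UMI counts of live CD45+ tumor cells were deposited for 1 library per group. The authors made these counts from 10x 3′ libraries with Cell Ranger against mm10, the matrix header gives version 3.0.2, and the deposited counts were used without normalization.

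Of 11651 called cells 9798 passed the study's filter. The 2000 most variable genes, without Tlr, pathway and 88 interferon-related genes, gave 15 principal components, a graph of 20 neighbours and Leiden clusters at resolution 1 (leidenalg 0.10.2, scikit-learn 1.9.0). Clusters were named from preset markers. Counts were summed per class and library. Ratios used 0.5 added UMI on the log2 scale only, and 95% intervals were exact (scipy 1.17.1). With 1 library per group, no test was made. Doublets were kept. An alternative left them out with Scrublet (scanpy 1.11.5) and a marker rule.

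Members were named wherever they had at least 20 UMIs. Pathway genes in monocyte/macrophage-like cells were the 3 with the largest change per role among those past 1.5-fold with at least 100 UMIs, or those that passed plus the one with the most UMIs. In other classes they were the 3 largest past 2-fold with at least 50 UMIs. Likeness used the 3 highest r per member with at least 300 UMIs. The code was checked on simulated counts. The members and gene lists were chosen with earlier results of these data known.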

Additional observations from a re-analysis of the deposited data

Results flagged for a closer look

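Tlr2 differed in direction between classes under the same contrast. The ratio of control over NK-depleted was 1.29 in neutrophil-like cells, whereas it was 0.712 in monocyte/macrophage-like and 0.721 in conventional DC-like cells. In cDC2-like cells it was 0.776, but these are part of the conventional DC-like class. They held 132 of its 147 control and 254 of its 280 NK-depleted Tlr2 UMIs. Intervals clear of 1 were found for 14.6% of all genes in neutrophil-like, 45.5% in monocyte/macrophage-like and 20.6% in conventional DC-like cells. Each class holds 1 library per group, so the difference between classes was not tested. In neutrophil-like cells the log2 ratio of Tlr2 stayed between 0.27 and 0.44 over 10 other settings, and in monocyte/macrophage-like cells between -0.52 and -0.33 over 15. Under a stricter cell filter the conventional DC-like log2 ratio came to -0.03 and the cDC2-like value changed sign.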

How the results depend on the processing

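Over 25 log2 ratios of members in classes, 303 values were computed under other settings. Of these, 290 stayed within the counting interval, 12 moved beyond it and 1 reversed, and 17 of the 25 ratios never changed sign. Many of these values had little room to move. Tlr1, Tlr2, Tlr6, Tlr7, Tlr8, Tlr9 and Tlr13 had 0 UMIs in melanoma-like cells, so subtracting that background left their ratios as they were. Where UMIs were few the interval was wide. Tlr4 in conventional DC-like cells, at 0.09, counted as within it at 0.81 (resolution 2). The 290 is therefore no measure of robustness. The reversed value was Tlr7 in conventional DC-like cells (0.73), which was -0.18 with classes called cell by cell. The count of members past 1.5-fold in monocyte/macrophage-like cells was 0 and became 1 at resolution 2, 1 with classes called cell by cell, 3 with clusters weighted in both libraries by the mean of their shares of cells, 1 with cells thinned to 2000 UMIs, 1 with the mean of per-cell CPM, 2 with doublets left out and 1 with a melanoma-like background subtracted. In alternatives chosen after seeing the data it was 1 with clusters weighted by each library's own shares of cells and 3 with the mean of their shares of UMIs in both. It stayed 0 without the upper limits, with the stricter filter and without the 5 highest cells. It was also 0 without 2 shallow clusters, an alternative chosen after seeing the data, and with median ratio scaling. That scaling hardly moves a ratio, since the median log2 ratio of all measured genes was -0.01. A minimum of 50 UMIs or a fold of 2 can only lower the count, so the 0 there was fixed in advance. Tlr3 ranged from 0.48 to 1.04 (log2) and was past the fold in 8 of 15 settings, and its cause was not tested. These settings overlap in what they change, and the 8 include cluster weights chosen after seeing the data.

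No paired analysis was possible because each group is 1 library. Leaving out a replicate was not possible for the same reason. Leaving out doublets removed 1258 of 9798 cells, 1254 of them by 2 or more markers of another class and 72 by Scrublet, with overlap. Depth limits Tlr8, Tlr9 and all members in plasmacytoid DC-like, migratory DC-like and B-like cells, and differences between hosts within a pool cannot be told apart from the treatment.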
